A study of Mus musculus with 7 samples.

Results

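The tripartite motif (TRIM) genes of mouse bone marrow-derived dendritic cells (BMDCs) were compared between flow-sorted immature and mature cells. Members were all genes of the deposited table whose name is Trim followed by a number and at most 1 letter. This rule, which uses no measured value, found 59 of 28666 genes. Of these, 51 passed the filter on low counts and were tested among 17461 genes, and 8 had at most 16 counts in any library and were not tested.

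The 7 libraries were 3 of immature and 4 of mature BMDCs. The labels give the cell type and the stage and no treatment. As the study describes it, marrow of female C57BL/6 mice aged 6 to 8 weeks was grown for 7 days with GM-CSF and IL-4. The BMDCs were then placed across a Transwell membrane from MC38 cells, a mouse colon carcinoma line, for 24 h with DON, a glutamine antagonist, at 5 µM, and were sorted afterwards. A legend of the study names the vehicle DMSO beside DON for the sorted cells, so that the condition of a single library is not known here. The markers of the sort are not given in the sources used here, and neither is which animal or culture each library came from. The study states for its data in general that they stem from independent biological experiments. The p-values measure the spread between these libraries. Total counts were 54846746 to 67973086 per library. A gene was past the criteria, taken from the study's methods, with a log2 fold change of 1 or more in size and an adjusted p under 0.05. Of 8 dendritic cell markers, 5 were past the criteria and higher in mature cells, beside 13.2% of all genes tested. These were Flt3, Zbtb46, Ccr7, Cd80 and Cd86. Where the study gives markers of mature cells, in tissues of tumor-bearing mice, they are CD80 and CD86. If the sort used them too, the rise of Cd80 and Cd86 was fixed in advance. Itgax was lower by adjusted p (log2 fold change -0.41, edgeR adjusted p = 0.0124), and Cd74 and H2-Ab1 did not pass. All 6 macrophage markers were past the criteria and lower, beside 9.95% of all genes tested. Summed macrophage markers were at 1522 to 1626 CPM, the counts scaled to a common library total, in immature and 347 to 405 CPM in mature libraries, so that the immature libraries carried more macrophage-type RNA, and the part of this in the results on TRIM genes was not tested.

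TRIM proteins carry in most cases a RING finger, 1 or more B-boxes and a coiled coil, followed by a C-terminal domain that sets the target. The RING finger recruits a ubiquitin-loaded E2 enzyme, and the protein then passes ubiquitin to a substrate. In myeloid cells the family is known for the restriction of retroviruses, for ubiquitination of RNA and DNA sensors and their adaptors, and for control of transcription. Some TRIM proteins, Trim14, Trim16, Trim29, Trim44 and Trim66 among them, lack the RING finger. The annotation in the deposited table gives a ubiquitin ligase or transferase activity to 48 of the 59 members, zinc ion binding to 56, a role in the innate immune response to 31 and in the defense response to virus to 9.

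TRIM genes differed widely in level. On the scale of FPKM, which divides fragments by gene length and library total and so allows levels of different genes to be compared, 9 members had a mean over the 7 libraries of at least 10, 37 of at least 1 and 22 of less than 1. Trim58, Trim60 and Trim43b had 0 counts in all 7 libraries. The 5 highest means belonged to Trim35, Trim25, Trim28, Trim8 and Trim30a. FPKM use plain library totals. The folds were fitted with TMM normalization factors, 0.950 to 0.970 for immature and 0.964 to 1.07 for mature libraries. A ratio of FPKM can therefore differ from the fold given beside it. The summed FPKM of all 59 members was 269.7 to 290.9 in the immature and 322.5 to 391.3 in the mature libraries, and these ranges do not overlap. Trim35, Trim25 and Trim28 together supplied 32.6% to 33.7% of this sum in immature and 37.4% to 39.5% in mature libraries. Of all single genes tested, 52.1% had groups that did not overlap. No such sum over other genes was computed, so that nothing particular to the family can be read from this one.

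Trim35, a ligase described to act on Irf7 and on pyruvate kinase M2, had FPKM of 31.2, 29.3 and 28.2 in the immature and 55.0, 54.0, 46.2 and 52.7 in the mature libraries. Every mature library lay above every immature one, and the level was 1.63-fold higher in mature cells (log2 fold change 0.70 ± 0.07, with its standard error, edgeR adjusted p = 7.24e-05). Trim25, the ligase of the RNA sensor RIG-I, had FPKM of 33.3, 32.3 and 31.1 in immature and 46.8, 49.6, 35.9 and 49.8 in mature libraries. The groups did not overlap, mature replicate 3 lay nearest to the immature libraries, and the difference was 1.31-fold (edgeR adjusted p = 0.0111). Trim28, the corepressor that KRAB zinc finger proteins recruit to DNA, had FPKM of 30.2, 33.5 and 29.2 in immature and 43.5, 42.6, 45.3 and 42.1 in mature libraries, a 1.30-fold difference (edgeR adjusted p = 0.00681). Trim8, which is described to promote NF-κB signalling through the kinase Tak1, went the other way. Its FPKM of 27.0, 25.1 and 25.3 in the immature libraries lay above the 20.2, 18.7, 15.6 and 18.6 of the mature ones, a 1.52-fold difference (edgeR adjusted p = 0.000388). None of these 4 genes reached the fold change of the criteria. Trim30a, described to limit NF-κB signalling through loss of Tab2 and Tab3, had FPKM of 18.1 to 19.8 in immature and 16.7 to 22.8 in mature libraries. These ranges overlap, and its log2 fold change was -0.05 ± 0.09 (edgeR adjusted p = 0.703), with a positive sign when mature replicate 3 was left out.

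Past the criteria were 11 of the 51 tested members, or 21.6%, beside 23.1% of all genes tested. Higher in mature cells were 8 members (15.7%, beside 13.2% of all genes): Trim7, Trim24, Trim68, Trim34b, Trim54, Trim55, Trim63 and Trim72. Of these, Trim55 and Trim63 had 0 counts in every immature library. Lower were 3 members (5.88%, beside 9.95%): Trim29, Trim16 and Trim47. Both shares are near those over all genes, and nothing particular to the family can be read from them. By adjusted p alone, 27 members (52.9%, beside 46.1% of all genes) passed, 21 of them higher and 6 lower, and the immature and mature libraries did not overlap for 26 members (51.0%, beside 52.1%). The median log2 fold change was 0.30 over the 51 members, 0.12 over the 47 outside the muscle group described below, and 0.05 over all genes tested. Among genes with a mean FPKM of at least 1, the median absolute log2 fold change was 0.39 for 37 TRIM members and 0.47 for 11322 genes.

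**Figure D1:**
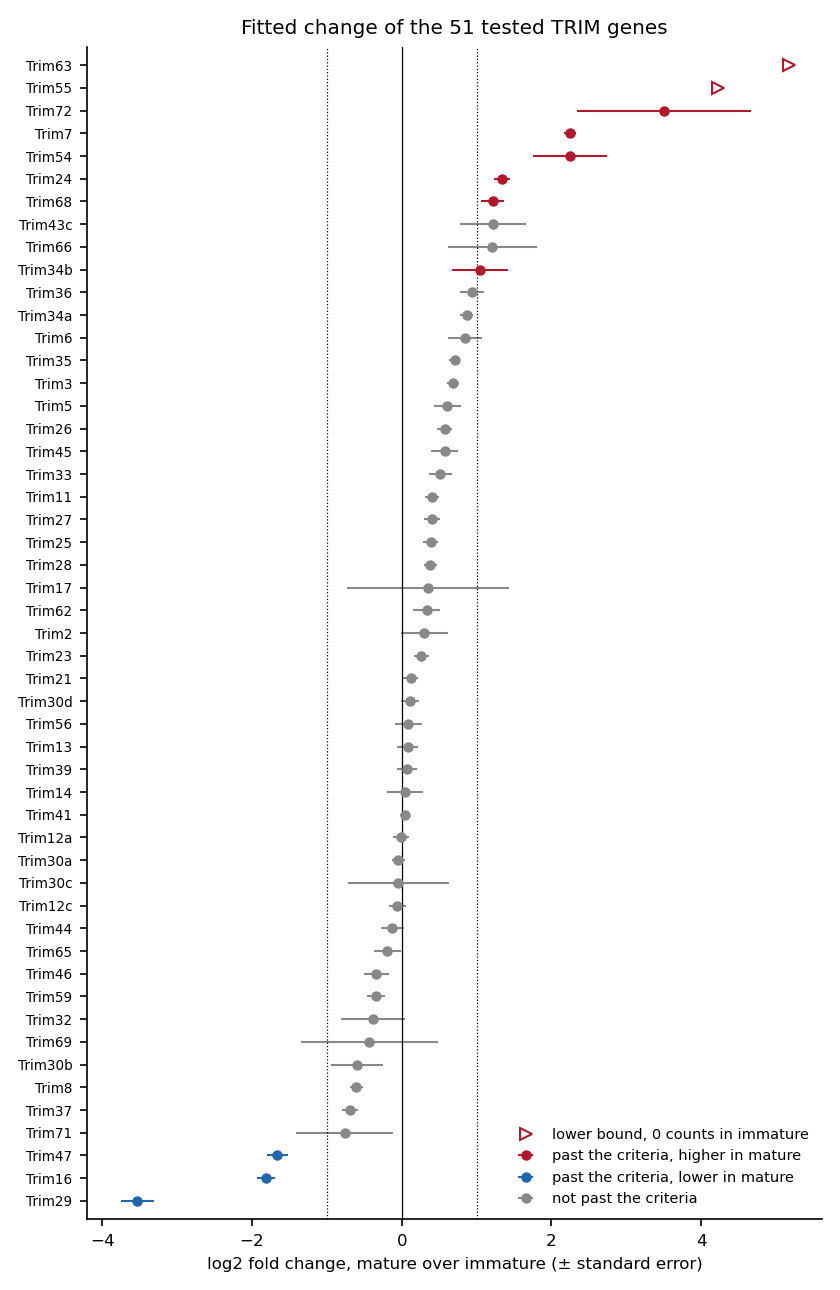
Fitted log2 fold change (mature over immature, horizontal axis, ± standard error) of the 51 tested TRIM genes, in order of size. Open triangles mark the lower bounds of Trim63 and Trim55, which had 0 counts in the 3 immature libraries, dotted lines mark a log2 fold change of 1 in either direction, and coloured genes, 8 higher and 3 lower, are past the criteria. Most members lie between the dotted lines.

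Among members higher in mature cells, Trim7 had the largest rise outside the muscle group. Trim7, first described as a protein that binds glycogenin, the primer of glycogen synthesis, lies on chromosome 11 (chr11:48826140-48851187, plus strand, GRCm38). Its FPKM was 1.88, 1.86 and 1.71 in the immature and 10.01, 9.77, 8.79 and 8.74 in the mature libraries. Every mature library was far above every immature one, and the rise was 4.75-fold (log2 fold change 2.25 ± 0.08, edgeR adjusted p = 4.07e-07). It was past the criteria in all 16 alternatives computed. On the opposite strand the transcript Gm16170, whose gene overlaps Trim7, also rose, from 2.12 ± 0.28 (SD, n = 3) to 14.2 ± 5.7 (SD, n = 4) CPM (edgeR adjusted p = 0.000336), and Gm12184 on that strand was at 24.4 ± 1.2 and 30.9 ± 7.1 CPM (edgeR adjusted p = 0.125). The library kit keeps the strand, but whether the counting used it is not stated, so that reads of these overlapping genes may not be told apart.

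Trim24 and Trim68 rose by a smaller factor. Trim24, or TIF1α, is a bromodomain reader of histone tails, a co-regulator of nuclear receptors and a ligase of p53. Its FPKM was 1.58, 1.58 and 1.31 in immature and 4.34, 4.34, 3.30 and 4.32 in mature libraries, with no overlap and with mature replicate 3 below the other mature libraries. The rise was 2.53-fold (log2 fold change 1.34 ± 0.11, edgeR adjusted p = 1.83e-05) and was past the criteria in all 16 alternatives. Trim68, known as a co-activator of the androgen receptor, had FPKM of 1.63, 1.28 and 1.21 in immature and 3.48, 4.22, 2.85 and 3.31 in mature libraries. The groups did not overlap, and the rise was 2.32-fold (log2 fold change 1.21 ± 0.16, edgeR adjusted p = 0.000285).

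**Figure D2:**
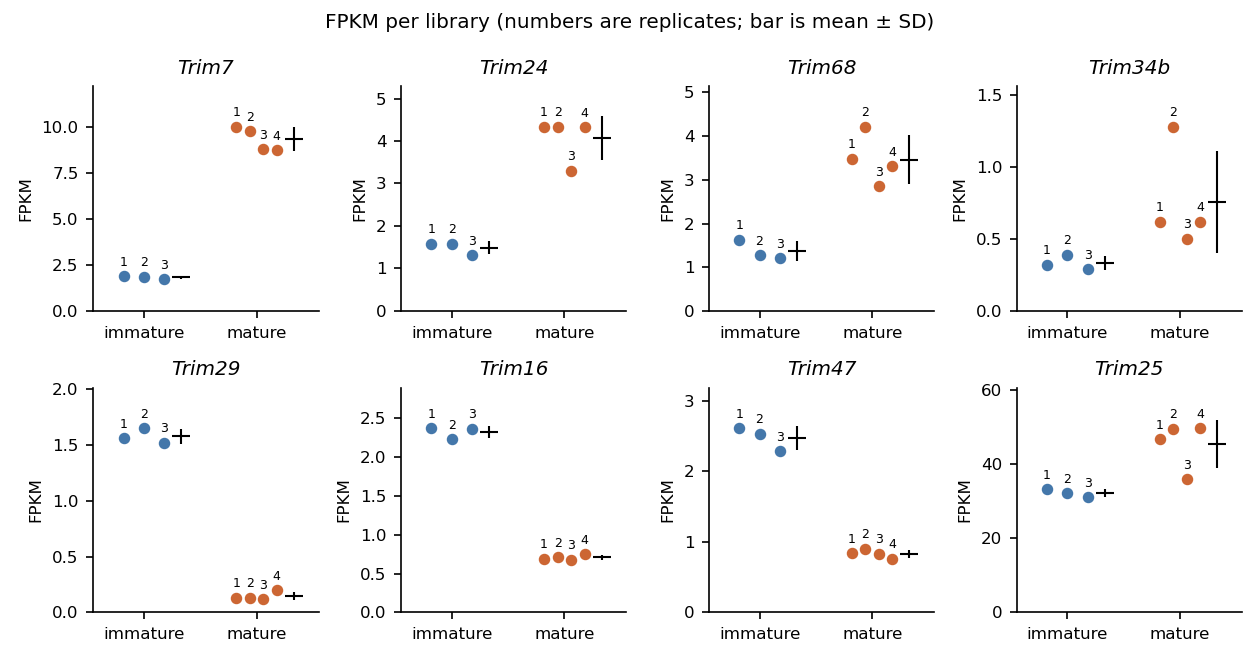
FPKM per library (vertical axis, from 0) of the 7 TRIM genes past the criteria outside the muscle group, and of Trim25. Blue points are immature and orange points mature libraries, digits are replicate numbers, and the black bar is the mean ± SD. In each panel the groups do not overlap, and Trim29 lay between 1.52 and 1.65 in immature and between 0.12 and 0.20 in mature libraries.

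Trim29 fell most. Trim29, which lacks a RING finger, is known from epithelia and has been described in macrophages as a brake on innate signalling. Its FPKM was 1.56, 1.65 and 1.52 in the immature and 0.13, 0.13, 0.12 and 0.20 in the mature libraries. The counts behind these values were 358 to 398 in immature and 25 to 45 in mature libraries. The groups were far apart, and the level was 11.6-fold lower in mature cells (log2 fold change -3.54 ± 0.22, edgeR adjusted p = 3.62e-06), past the criteria in all 16 alternatives. Epithelial markers were measured because the tumor cells of the co-culture are epithelial in origin. Of 5, 1 rose past the criteria (Epcam, 0.27 to 1.28 CPM), beside 13.2% of all genes tested, and none fell by adjusted p. Their summed level was 69.9 to 77.3 CPM in immature and 59.2 to 69.5 CPM in mature libraries. Most of this sum was Cdh1, at means of 55.2 and 51.5 CPM (edgeR adjusted p = 0.376). Krt8 varied from 3.93 to 10.73 CPM among the mature libraries. Whether RNA of other cells carried part of the Trim29 level in the immature libraries was not tested.

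Trim16 and Trim47 fell with little spread between libraries. Trim16, which also lacks a RING finger, is described in the autophagy of damaged lysosomes. It had FPKM of 2.37, 2.23 and 2.36 in immature and 0.69, 0.71, 0.68 and 0.75 in mature libraries. The groups were far apart, with a level 3.51-fold lower in mature cells (log2 fold change -1.81 ± 0.12, edgeR adjusted p = 6.10e-06). Trim47, a RING-type ligase, had FPKM of 2.61, 2.53 and 2.28 in immature and 0.84, 0.90, 0.83 and 0.76 in mature libraries, 3.17-fold lower in mature cells (log2 fold change -1.66 ± 0.14, edgeR adjusted p = 2.41e-05). Trim65, which neighbours Trim47 on the same strand of chromosome 11, is described as a ligase of the RNA sensor Mda5. It was at 1.31 ± 0.28 (SD, n = 3) and 1.24 ± 0.21 (SD, n = 4) FPKM, with overlapping groups (edgeR adjusted p = 0.425).

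The largest single group of TRIM genes lies on chromosome 7. In mice a run of 10 members (chr7:104218793-104507849, GRCm38) holds the relatives of the retroviral restriction factor TRIM5α, in the order Trim6, Trim34a, Trim5, Trim12a, Trim34b, Trim12c, Trim30b, Trim30c, Trim30a and Trim30d. Genes of such runs share sequence, and reads from shared stretches cannot be assigned with certainty. Of all 75-base words in their GENCODE transcripts, 42.5% of those of Trim34b and 29.5% of those of Trim34a also occurred in other genes, as did 20.6% for Trim5 and 16.9% for Trim12c. All the shared words of Trim34b occurred in Trim34a, and all those of Trim34a in Trim34b.

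Of the 10 members of this run, 4 rose by adjusted p (beside 23.2% of all genes tested): Trim34a, Trim34b, Trim6 and Trim5. Trim34a had FPKM of 5.75, 5.90 and 5.59 in immature and 12.0, 10.8, 11.1 and 11.4 in mature libraries, a 1.83-fold rise with no overlap (log2 fold change 0.87 ± 0.09, edgeR adjusted p = 6.57e-05). Trim34b, its closest relative in the run, had FPKM of 0.32, 0.39 and 0.29 in immature and 0.62, 1.28, 0.50 and 0.62 in mature libraries. Mature replicate 2 stood above the other mature libraries. Per library, Trim34b had 40 to 160 counts and Trim34a 953 to 2130. Reads of their shared stretches may not be told apart, and the part of such reads in either rise was not tested. The rise of Trim34b was 2.07-fold (log2 fold change 1.05 ± 0.37, edgeR adjusted p = 0.0473), the only one of the run past the criteria. It was not past them in 8 of the 13 alternatives that tested it, among them those without mature replicate 2 (log2 fold change 0.70, edgeR adjusted p = 0.104). Trim6, which is described to make free ubiquitin chains in interferon signalling, was at 0.62 ± 0.13 (SD, n = 3) and 1.20 ± 0.29 (SD, n = 4) FPKM (log2 fold change 0.84 ± 0.23, edgeR adjusted p = 0.0151). Trim5 was at 2.80 ± 0.27 (SD, n = 3) and 4.63 ± 1.12 (SD, n = 4) FPKM (log2 fold change 0.61 ± 0.18, edgeR adjusted p = 0.0244). The 3.01 of mature replicate 3 equalled the highest immature value of Trim5, so that its groups overlapped. The adjusted p of Trim5 was 0.0530 to 0.0998 by edgeR in 5 of the 7 fits that left out 1 library. That of Trim6 was 0.0631 and 0.0659 by edgeR without immature replicate 1 or 2. These losses were not confined to 1 particular library, and both calls lay near the threshold.

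The other 6 members of the run did not pass the test, and their log2 fold changes were -0.60 for Trim30b, -0.06 for Trim12c, -0.05 for Trim30c, -0.05 for Trim30a, -0.01 for Trim12a and 0.11 for Trim30d. Trim30d passed the adjusted p without mature replicate 3 (log2 fold change 0.22, edgeR adjusted p = 0.0412). Their levels spanned a wide range, since Trim30a and Trim30d were at mean FPKM of 19.4 and 12.0 over the 7 libraries while the neighbours Trim30b and Trim30c were at 0.11 and 0.20. Signs as small as those of Trim12a, Trim12c, Trim30a and Trim30c changed between alternatives.

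**Figure D3:**
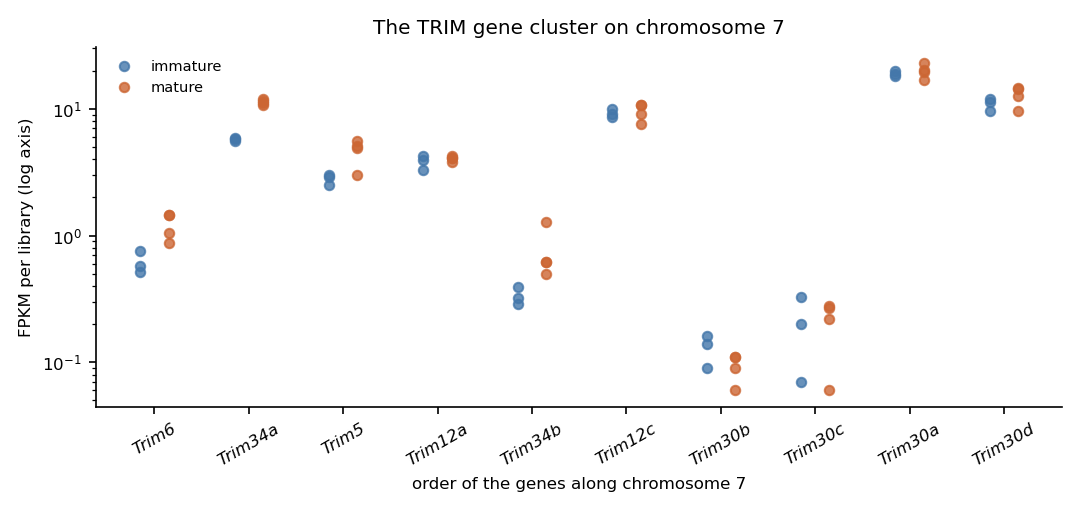
FPKM per library (vertical log axis) of the 10 TRIM genes of the chromosome 7 run, in their order along the chromosome (horizontal axis, not to scale); blue points are the 3 immature and orange points the 4 mature libraries. Trim34a, with 5.59 to 5.90 in immature and 10.8 to 12.0 in mature libraries, is well separated, while Trim12a, Trim12c, Trim30a and Trim30d overlap.

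Some promoters of this run hold a short element that interferon-activated factors are known to bind. The interferon-stimulated response element (ISRE) was searched as GAAANNGAAA on both strands, in the 250 bases before each RefSeq start (GRCm38.p6). Promoters were found for 45 of the 59 members. A match occurred in 5 of these members and in 5 of their 59 promoters (8.47%), beside 2.98% of 32851 promoters of all genes. Of these 5 members, 4 lie in the chromosome 7 run: Trim12c, Trim5, Trim30a and Trim30d. The fifth is Trim26 on chromosome 17. The following stretches of 80 bases hold the match and are given 5′ to 3′ on the strand of the gene, with the match in capitals, because they show which neighbours carry the same element in the same surroundings. Each match reads as the reverse complement of the searched letters. The stretches are chr7:104353350-104353429 for Trim12c, chr7:104288107-104288186 for Trim5, chr7:104465194-104465273 for Trim30a and chr7:104507850-104507929 for Trim30d, all on the minus strand, and chr17:36836954-36837033 on the plus strand for Trim26.
Trim12c: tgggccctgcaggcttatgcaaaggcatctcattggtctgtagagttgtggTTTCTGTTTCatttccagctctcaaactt
Trim5: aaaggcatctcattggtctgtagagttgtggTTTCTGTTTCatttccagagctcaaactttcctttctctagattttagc
Trim30a: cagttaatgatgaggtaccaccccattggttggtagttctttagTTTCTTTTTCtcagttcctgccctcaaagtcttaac
Trim30d: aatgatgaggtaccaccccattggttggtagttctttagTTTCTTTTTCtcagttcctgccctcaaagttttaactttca
Trim26: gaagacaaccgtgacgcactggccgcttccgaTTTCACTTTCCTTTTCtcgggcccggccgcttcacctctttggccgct

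Most stretches fall into pairs. Those of Trim12c and Trim5 share a run of 49 identical bases and those of Trim30a and Trim30d one of 69, while no other pair shares more than 10. In Trim26 the capitals hold 2 overlapping matches. The match begins 29 bases before the RefSeq start in Trim12c, 49 in Trim5, 36 in Trim30a and 41 in Trim30d. Of the 5 genes, Trim26 rose by adjusted p in all 16 alternatives and Trim5 in 10 of 16, while Trim12c, Trim30a and Trim30d did not pass the test, and Trim5 and Trim12c, with identical elements, had log2 fold changes of 0.61 and -0.06, a difference that was not tested. A match is a description of these letters and no evidence of binding.

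Among TRIM genes with described roles in innate signalling, Trim29 had the largest change. Past the criteria as higher were 0 of the 12 members tested in edgeR, beside 13.2% of all genes tested. The count was 0 of 13 in DESeq2 and 0 of 11 in limma, while 5 were higher at an unadjusted p under 0.05 in edgeR. Trim29 alone was past the criteria and lower, beside 9.95% of all genes tested, and the median log2 fold change was 0.10. By adjusted p, 4 of the 12 were higher and 2 lower, beside 23.2% and 22.9% of all genes tested. The 4 were Trim25, given above, Trim26, Trim27 and Trim45. Trim26, described to act on nuclear Irf3, went from 6.68 ± 0.48 (SD, n = 3) to 10.7 ± 1.5 (SD, n = 4) FPKM (log2 fold change 0.57 ± 0.10, edgeR adjusted p = 0.00165). Trim27, described as a ligase of NF-κB pathway kinases, went from 6.19 ± 0.07 to 8.81 ± 0.72 FPKM (log2 fold change 0.41, edgeR adjusted p = 0.0128). Trim45 went from 0.36 ± 0.06 to 0.58 ± 0.03 FPKM (log2 fold change 0.57, edgeR adjusted p = 0.0315). The 2 lower ones were Trim29 and Trim8. Of these calls, that of Trim45 was lost in 7 of 13 alternatives (adjusted p of 0.0530 to 0.191), and those of Trim25 and Trim27 in 2 of 16 each, with adjusted p of at most 0.0654.

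The remaining members of that group did not pass the test. Trim21, the cytosolic antibody receptor, had a log2 fold change of 0.12 ± 0.10 (edgeR adjusted p = 0.381), and Trim23, which carries an ARF domain beside its RING finger, one of 0.26 ± 0.10 (edgeR adjusted p = 0.0699). Trim13, a ligase of the endoplasmic reticulum membrane, had a log2 fold change of 0.08 ± 0.14 (edgeR adjusted p = 0.675). Trim56, described as a ligase of the DNA sensing pathway, was at 3.23 ± 0.28 (SD, n = 3) and 3.73 ± 0.92 (SD, n = 4) FPKM. Trim14, an adaptor at mitochondria without a RING finger, had FPKM of 8.67, 8.09 and 8.90 in immature and 10.3, 11.5, 4.89 and 11.7 in mature libraries. For Trim14, mature replicates 1, 2 and 4 lay above and replicate 3 below all immature libraries (edgeR adjusted p = 0.901, and 0.0116 without mature replicate 3, where the log2 fold change was 0.27). On the opposite strand, Nans overlaps Trim14 over 9852 bases, at a mean of 96.4 CPM. Likewise, Dleu2 overlaps Trim13 (3108 bases, 13.3 CPM) and Zbtb45 overlaps Trim28 (5933 bases, 18.9 CPM). The limit on strand given for Trim7 holds for these genes too.

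Mature replicate 3 was low for many TRIM genes, more so on the whole for those with long transcripts. Among 34 members with a mean of at least 5 CPM, it was the lowest mature library for 21, with a median log2 ratio of -0.22 to the other mature libraries. This ratio fell with the length of the transcript, with a Spearman rho of -0.45 over these 34 genes of 1 set of libraries, given as a description. These values were not computed over all genes, so that a trait of this library and one of TRIM genes cannot be told apart here. Trim44, Trim33, Trim36, Trim5 and Trim56 were among the genes low in it. Trim14 had the lowest ratio, -1.06, although its longest transcript of 2653 bases is shorter than theirs. Mature replicate 1 differed for Trim32, a ligase with an NHL domain, which was at 2.15 CPM there, at 5.77 to 9.37 CPM in the other mature and at 7.82 to 9.92 CPM in the immature libraries.

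Of the 4 transcription cofactors of the TIF1 group, 3 rose by adjusted p, beside 23.2% of all genes tested. These were Trim24, past the criteria, and Trim28 and Trim33. Trim33, a ligase of Smad4, was at 3.60 ± 0.28 (SD, n = 3) and 5.58 ± 1.20 (SD, n = 4) FPKM (log2 fold change 0.52 ± 0.15, edgeR adjusted p = 0.0212). That call was lost without immature replicate 2, immature replicate 3 or mature replicate 4 (edgeR adjusted p = 0.0902, 0.0701 and 0.0508). Trim66 was close to absent, with 6 to 12 counts in immature and 10 to 36 in mature libraries, and its log2 fold change of 1.21 ± 0.60 did not pass (edgeR adjusted p = 0.132). Of the 4 members with NHL repeats, 1 passed by adjusted p, beside 46.1% of all genes tested. This was Trim3 (log2 fold change 0.68 ± 0.08, edgeR adjusted p = 0.000196). Trim36, a ligase known to bind microtubules, missed the fold change criterion most narrowly in the edgeR fit of all 7 libraries. Its log2 fold change was 0.94 ± 0.16 (edgeR adjusted p = 0.00152). Its level was 18.0 ± 2.4 (SD, n = 3) and 34.6 ± 5.9 (SD, n = 4) CPM, or 3.21 ± 0.42 and 6.68 ± 1.40 FPKM. Alternatives that put Trim36 past the criteria included limma on log2(FPKM + 0.1) and edgeR without mature replicate 3. Trim43c, of a family expressed in early embryos, had a log2 fold change of 1.21 ± 0.44 and missed the adjusted p (edgeR adjusted p = 0.0510). Its overlapping neighbour on the opposite strand, 9330159M07Rik, rose from 4.02 ± 0.54 to 10.5 ± 2.0 CPM (edgeR adjusted p = 0.000447).

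The 4 TRIM genes of striated muscle were high in mature replicates 2, 3 and 4 and low or at 0 in the other 4 libraries. Trim63, Trim55 and Trim54, or MuRF1, MuRF2 and MuRF3, are ligases of the sarcomere, and Trim72, or MG53, repairs the membrane of muscle cells. Trim63 had 0 counts in each immature library, 12 in mature replicate 1, and 155, 122 and 152 in mature replicates 2, 3 and 4. Trim55 had 0 counts in the immature libraries and mature replicate 1, and 86, 75 and 66 in mature replicates 2, 3 and 4. Against a floor of 3 counts per immature library, Trim63 was at least 36.0-fold and Trim55 at least 18.7-fold higher in the mean of the mature libraries. Both passed the filter on low counts only through the mature libraries in which they were high, so that they had to differ, and their calls are given as a description with no p.

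Trim72 and Trim54 showed the same split above a low level. Trim72 had 18, 36 and 12 counts in immature libraries, 4 in mature replicate 1 and 302, 405 and 308 in replicates 2, 3 and 4 (log2 fold change 3.50 ± 1.16, edgeR adjusted p = 0.0363). That call was lost in 9 of 16 alternatives, among them each immature library left out (edgeR adjusted p = 0.113, 0.0687 and 0.122). Trim54 had 36, 41 and 64 counts in immature libraries, 80 in mature replicate 1 and 240, 293 and 279 in the others (log2 fold change 2.24 ± 0.49, edgeR adjusted p = 0.00568). Mature replicate 1 was nearer to the immature than to the other mature libraries for all 4 genes. In a comparison of that library alone with the immature ones, added after seeing the data, Trim55 and Trim63 fell under the filter on low counts, and neither Trim54 nor Trim72 was past the criteria or had an unadjusted p under 0.05 by edgeR. The log2 fold change of Trim72 was then -2.58 (edgeR adjusted p = 0.157).

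Heart muscle markers moved with these genes, which is given as a description, since the list was chosen with earlier results of these data known. The summed level of 13 such markers was 6.44 to 6.72 CPM in immature libraries, 27.4 CPM in mature replicate 1 and 817 to 973 CPM in mature replicates 2, 3 and 4. Of the 13, 3 to 4 were at 0 in each immature library, 3 in mature replicate 1 and none in the other 3 mature libraries. The summed level of the 4 muscle TRIM genes was 0.92 to 1.38 CPM in immature libraries, 1.46 CPM in mature replicate 1 and 11.8 to 16.9 CPM in replicates 2, 3 and 4. In bulk samples, a change in the number of cells of a type and in the RNA per cell cannot be told apart. The part of the heart muscle markers in the levels of Trim54, Trim55, Trim63 and Trim72 was not tested. Without these 4 genes, 4 of the 47 other tested members were higher and 3 lower, beside 13.2% and 9.95% of all genes tested. In either direction this was 14.9% of the 47 members, beside 23.1% of all genes tested. With mature replicate 1 as the only mature library, the spread comes from the 3 immature libraries alone and the lone library is assumed to vary like them. The log2 fold changes of Trim7, Trim24, Trim68, Trim29, Trim16 and Trim47 kept their direction and a size of 1 or more there.

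**Figure D4:**
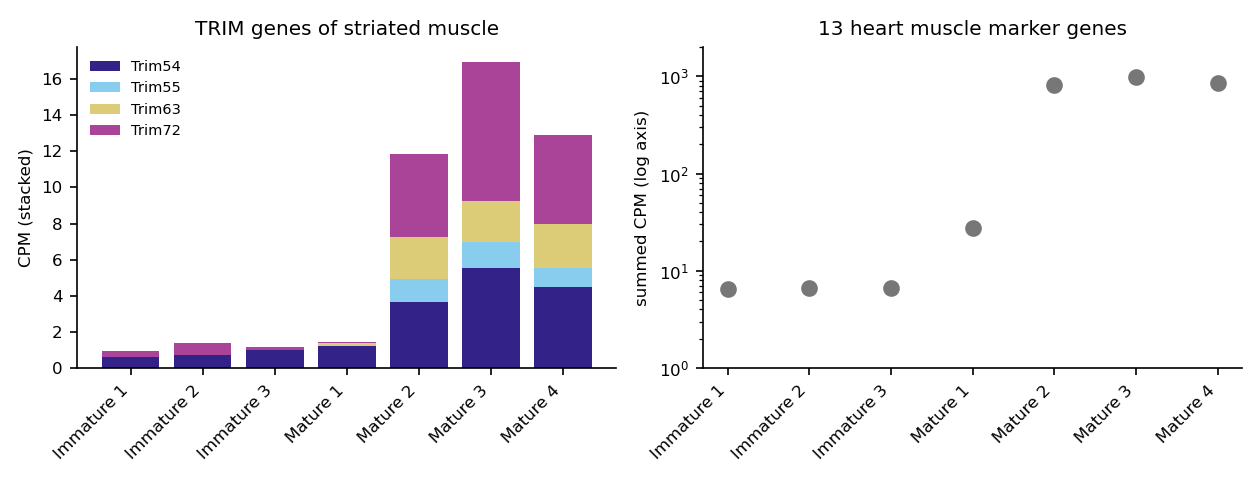
Left, CPM per library of Trim54, Trim55, Trim63 and Trim72, stacked from 0; right, summed CPM of 13 heart muscle marker genes in the same libraries, on a log axis. Both are low in the 3 immature libraries and in mature replicate 1 and high in mature replicates 2, 3 and 4, where the TRIM genes sum to 11.8 to 16.9 CPM and the markers to 817 to 973 CPM.

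TRIM proteins that carry other gene names were described beside the members. Of 5 such genes in the table, 3 were past the criteria and higher, beside 13.2% of all genes tested, and for Mid2 and Rnf207 the adjusted p was just under the threshold. Mefv, or pyrin, the sensor of an inflammasome, rose from 1.01, 1.27 and 1.15 FPKM in immature to 6.07, 6.03, 4.69 and 5.81 FPKM in mature libraries, a 4.55-fold rise with no overlap (log2 fold change 2.19 ± 0.13, edgeR adjusted p = 2.82e-06). Mid2, a microtubule-bound ligase, was at 0.30 ± 0.08 (SD, n = 3) and 0.73 ± 0.25 (SD, n = 4) CPM (log2 fold change 1.26, edgeR adjusted p = 0.0478). Rnf207, known from heart muscle, was at 0 to 0.23 CPM in immature libraries, 0.18 CPM in mature replicate 1 and 1.23 to 1.61 CPM in the other mature libraries (edgeR adjusted p = 0.0488), the split of the muscle TRIM genes. Pml, the organizer of nuclear bodies, was at 73.3 ± 5.4 (SD, n = 3) and 40.7 ± 3.7 (SD, n = 4) CPM, lower in mature cells by adjusted p and short of the fold change criterion (log2 fold change -0.85 ± 0.10, edgeR adjusted p = 0.000144). Mid1 had a log2 fold change of -0.36 ± 0.28 (edgeR adjusted p = 0.329).

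The partners of TRIM proteins were mixed in direction. Counted were 17 genes for sensors, adaptors, kinases and transcription factors of the pathways on which TRIM ligases are described to act. Of these, 2 were past the criteria and higher and 1 lower, beside 13.2% and 9.95% of all genes tested. By adjusted p, 4 were higher and 5 lower, beside 23.2% and 22.9% of all genes tested. Their median log2 fold change was 0.01. Traf6, itself a RING ligase, rose from 67.8 to 149.2 CPM (log2 fold change 1.14 ± 0.15, edgeR adjusted p = 0.000267) and Nfkb1, the p105 precursor of an NF-κB subunit, 3.15-fold (edgeR adjusted p = 3.25e-06). Ddx58, which encodes RIG-I, the substrate of Trim25, was 2.15-fold lower (log2 fold change -1.11 ± 0.09, edgeR adjusted p = 1.67e-05). None of 9 E2 enzymes that load RING ligases was past the criteria by edgeR, DESeq2 or limma, beside 23.1% of all genes in edgeR. In edgeR 2 were higher and 1 lower by adjusted p, beside 23.2% and 22.9% of all genes tested. The counts were the same at an unadjusted p under 0.05, and the log2 fold changes of the 9 lay between -0.24 and 0.40.

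Interferon-induced genes, many TRIM genes being among the known targets of interferon, were more often higher than lower by adjusted p, with 9 of 22 higher and 4 lower, beside 23.2% and 22.9% of all genes tested. Past the criteria were 2 of the 22 as higher and 2 as lower, beside 13.2% and 9.95% of all genes tested. The median log2 fold change was 0.49, beside 0.05 over all genes tested. The antiviral GTPases Mx1 and Mx2 rose 5.94-fold and 5.17-fold (edgeR adjusted p = 1.27e-06 and 1.11e-05). Ifitm3, which blocks viral entry, and Rtp4 were 3.05-fold and 2.66-fold lower (edgeR adjusted p = 5.31e-05 and 0.000276).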

How the data were processed

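RNA-seq of 3 immature and 4 mature BMDC libraries was analysed, with groups and replicate numbers from the labels. The table that the authors deposited holds unnormalized whole-number counts for each gene, and FPKM values, in which fragments are scaled by gene length and library total, with 2 decimals. Per the labels, poly(A) RNA went into a kit that marks the strand. The submitters' processing notes name cutadapt 1.9, HISAT2 2.2.1, StringTie 2.1.6, DESeq2 and edgeR, with no role given, and the build mm9. For most genes the coordinates of the deposited table equal those of GENCODE M21 on GRCm38, which is the build used here. Settings of the counting are not given in the sources used here.

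Counts of all genes were fitted in R 4.3.3 with edgeR 4.0.16 (filterByExpr, TMM, quasi-likelihood test, 7 libraries, Benjamini-Hochberg over 17461 genes). The standard error was obtained as the ratio of the log2 fold change to the root of F. CPM use TMM library sizes. A fold against 0 counts is a lower bound from a floor of 3 counts in each immature library, which covers counting error only. Total counts, 54846746 to 67973086, set the precision. The test was run on simulated counts beforehand.

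The members and lists were chosen with earlier results of these data known. Named with values were members past the criteria, the 5 highest by FPKM, the members of the chromosome 7, innate signalling, TIF1 and muscle lists, and the 3 nearest to the criteria on each side. Trim3, Trim32, Trim43c, Trim44 and overlapping genes were named after their values were seen. Of 11 names on the chromosome 7 list and 15 on the innate list, 10 and 13 are in the table.

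Alternatives were RLE size factors, DESeq2 1.42.0, no filter on low counts, an FPKM of at least 1 in 3 libraries, limma 3.58.1 on log2(FPKM + 1) and log2(FPKM + 0.1), adjusted p alone, a replicate block, each library left out, mature replicates 1 and 3 left out together and, added after seeing the data, mature replicate 1 alone. Promoters came from RefSeq (GRCm38.p6), and the 250 bases before the start were searched. The κB (a match in 1 of 59 promoters, beside 3.90% of all promoters) and MEF2 elements (0 of 59, beside 0.508%) were also searched.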

Additional observations from a re-analysis of the deposited data

Results flagged for a closer look

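For 4 of 36 named TRIM members, 1 mature library lay apart from the other mature libraries by more than Dixon's limit for 4 samples, where about 1.8 would do so by chance, and each of the 4 mature libraries was the distant one once. The ratio is the gap to the nearest library over the whole range. For Trim24 it was 0.839, with 31.9 CPM in mature replicate 3 and 37.6 to 38.7 CPM in the others. For Trim29 it was 0.934, with 0.72 CPM in mature replicate 4 and 0.47 to 0.49 CPM in the others. For Trim34b it was 0.897, with 2.42 CPM in mature replicate 2 and 1.06 to 1.20 CPM in the others. For Trim63 it was 0.945, with 0.18 CPM in mature replicate 1 and 2.31 to 2.43 CPM in the others.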

How the results depend on the processing

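The count of TRIM members past the criteria was 8 higher and 3 lower. Higher members were 9 with RLE size factors, 10 with DESeq2, 8 with no filter and 10 without mature replicates 1 and 3. They were 5 when 3 libraries had to reach an FPKM of 1, a filter that removed Trim34b, Trim55 and Trim63, 4 with limma on log2(FPKM + 1), 5 with limma on log2(FPKM + 0.1) and 21 by adjusted p alone. Lower members were 1 with limma on log2(FPKM + 1), which understates folds of low genes, and 6 by adjusted p alone. Leaving out each library in turn gave 5 to 9 higher and 3 to 5 lower members. There were 5 higher without mature replicate 2 and 5 without mature replicate 4, each time without Trim34b, Trim55 and Trim72, and 5 lower without mature replicate 1, with Trim69 and Trim71 added. Mature replicate 1 alone gave 6 higher and 4 lower members, with Trim36, Trim43c, Trim6 and Trim32 added and the muscle genes and Trim34b lost. Same-numbered libraries did not deviate together (correlations of 0.029, -0.001 and 0.014), so they were not treated as paired, and a fit with the replicate block gave 6 higher and 3 lower members, without Trim34b and Trim72.

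Trim7, Trim24 and Trim29 were past the criteria in 16 of 16 alternatives, Trim68, Trim54, Trim47 and Trim16 in 15, and Trim72 in 7. Trim34b was past them in 5 of the 13 that tested it, and Trim63 in 12 of 12 and Trim55 in 8 of 9, where the filter kept them only for their high libraries. By adjusted p alone, 16 of the 27 members were past 0.05 in every alternative with a value and 11 lost it in 1 or more: Trim59 (14 of 16), Trim72 (9), Trim34b (8), Trim45 (7), Trim5 (6), Trim33 (4), Trim6 (3), Trim25, Trim27 (2 each), Trim54 and Trim55 (1 each), 8 of them with the replicate block. Of 550 values over 36 named members, 493 kept their direction and side of the criteria, 21 lost and 7 gained the call, and 29 changed sign. Of the members that changed sign, only Trim72 was past the criteria, with a log2 fold change of -2.58 with mature replicate 1 alone. The others were not past the criteria. Trim12a turned to 0.0107 with RLE, 0.0135 with DESeq2, 0.0056 with no filter, 0.0311 with the FPKM filter, 0.0283 with the replicate block and 0.0758 and 0.094 with limma. Trim30a turned to 0.0555 and 0.0577 with limma and to 0.039 without mature replicates 1 and 3. Trim12c turned to 0.0373 and 0.0398 with limma and to 0.1128 with mature replicate 1 alone, and Trim65 to 0.0291 there. Trim14 turned to -0.1299 with the replicate block, and Trim13 to -0.0103 and Trim30c to 0.162 without mature replicates 1 and 3. With 1 library left out (or mature replicates 1 and 3), log2 fold changes ranged from -0.0971 to 0.0494 for Trim12a, -0.091 to 0.039 for Trim30a, -0.1114 to 0.0337 for Trim12c, -0.0536 to 0.313 for Trim14, -0.0103 to 0.1338 for Trim13 and -0.4621 to 0.5401 for Trim30c. The cause was not tested. The median of all genes was 0.05, and 0.18 with DESeq2 and 0.17 with no filter, which test more low genes.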
